A study of Mus musculus with 24 samples.

Results

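BXH7 is a recombinant inbred (RI) mouse strain, made by inbreeding from a cross of the progenitors B6 (C57BL/6J) and C3 (C3H/HeJ). Its lungs were measured on 2 of the 24 Affymetrix Mouse 430A arrays of the series, taken by their titles. They were compared with the 16 arrays of the other 8 RI strains (BXH2, BXH4, BXH6, BXH8, BXH9, BXH10, BXH14 and BXH19, with 2 arrays each). B6, C3 and their F1 hybrid (BXHF1) had 2 arrays each. All mice were untreated males aged 8 weeks from the Jackson Laboratory, with no transgene or induced mutation named, and each array is labelled with 1 tissue and n = 1. The labels give no hour of harvest. Since nothing more is said of how the paired lungs were taken, p-values measure the spread between the 2 arrays of a strain. The spread among the other 8 RI strains does not enter them. A called gene can thus stand at the level of several of those strains.

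In an RI strain nearly every locus is fixed for the allele of one or the other progenitor, so a BXH7 level can be read against both. The class of a gene is a level only, and its allele was not tested. A gene was placed at the B6 level or at the C3 level when the BXH7 mean lay within 0.5 of that progenitor alone on the log2 scale. It was near both when it lay within 0.5 of each, and outside both when it lay more than 0.5 above or more than 0.5 below each of them. The BXH7 results turned on genes of both kinds, and on the interferon-inducible GTPases and the circadian clock in particular. The guanylate-binding proteins (Gbp genes) and the immunity-related GTPases (Igtp, Irgm2, Iigp1) are induced by interferon-gamma and act on the vacuoles of intracellular microbes. In the clock, ARNTL with CLOCK activates the Per genes, the Nr1d genes and the output factors Dbp, Tef and Hlf, the PER proteins repress that activation, and the NR1D proteins repress Arntl. Lung tissue carries such a rhythm over the day.

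The promoters of 5 interferon-inducible genes that were higher in BXH7 are shown because all carry the interferon-stimulated response element core. Each is the 250 bases before the RefSeq start in the GRCm38.p6 build, 5′ to 3′ on the strand of the gene. Capitals mark matches on either strand to the core (ISRE, searched as GAAA, any 2 bases, GAAA) and to the gamma-activated site (GAS, searched as TTCNNNGAA). The windows are at chr3:142594597-142594846 for Gbp2b, chr3:142559794-142560043 for Gbp3 and chr3:142530086-142530335 for Gbp7, all on the plus strand. Those of Igtp and Bst2 are at chr11:58199306-58199555 on the plus strand and chr8:71537473-71537722 on the minus strand.
Gbp2b: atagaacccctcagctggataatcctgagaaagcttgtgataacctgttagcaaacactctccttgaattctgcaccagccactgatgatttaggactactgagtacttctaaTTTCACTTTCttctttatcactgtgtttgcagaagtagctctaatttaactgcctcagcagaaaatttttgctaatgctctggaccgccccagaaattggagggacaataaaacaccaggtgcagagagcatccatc
Gbp3: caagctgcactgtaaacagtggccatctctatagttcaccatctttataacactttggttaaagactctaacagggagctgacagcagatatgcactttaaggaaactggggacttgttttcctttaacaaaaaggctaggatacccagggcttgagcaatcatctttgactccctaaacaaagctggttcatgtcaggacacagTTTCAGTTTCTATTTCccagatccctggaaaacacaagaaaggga
Gbp7: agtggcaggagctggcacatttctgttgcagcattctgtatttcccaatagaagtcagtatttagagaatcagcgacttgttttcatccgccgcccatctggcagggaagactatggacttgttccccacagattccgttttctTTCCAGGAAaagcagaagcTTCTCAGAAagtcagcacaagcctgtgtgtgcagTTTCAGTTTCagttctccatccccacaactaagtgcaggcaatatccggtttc
Igtp: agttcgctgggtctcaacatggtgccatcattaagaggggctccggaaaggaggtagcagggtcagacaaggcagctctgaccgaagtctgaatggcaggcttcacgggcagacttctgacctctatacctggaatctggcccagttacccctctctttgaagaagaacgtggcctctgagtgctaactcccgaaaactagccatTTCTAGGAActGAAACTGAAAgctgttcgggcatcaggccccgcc
Bst2: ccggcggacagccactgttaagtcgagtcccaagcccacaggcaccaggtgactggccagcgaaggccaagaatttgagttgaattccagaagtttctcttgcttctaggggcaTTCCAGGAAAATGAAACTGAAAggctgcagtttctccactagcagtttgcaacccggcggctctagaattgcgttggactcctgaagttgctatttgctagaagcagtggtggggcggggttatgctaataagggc
An ISRE core was found in 5 of the 7 windows held for these genes and Ifi47, and in 2.98% of all 32851 mouse promoter windows of that length. A GAS match was found in 3 of the 7 windows, those of Gbp7, Igtp and Bst2, and in 7.02% of all windows. In Bst2 the GAS match and 2 ISRE matches overlap, and in Gbp3 the 2 ISRE matches overlap. Gbp8 and H2-T24, also higher in BXH7, had no window, and the second Gbp3 window held no match. The genes were picked as interferon-inducible, so these shares are a description. The matches are letters in a window, and their part in the levels was not tested.

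Against the mean of the other 8 RI strains, 52 genes were higher and 55 were lower in BXH7 of 8280 tested, which is 0.628% and 0.664% of genes (1.29% together). Each difference is BXH7 minus the mean of the 8 strain means of log2(signal + 16). A gene is called where the Benjamini-Hochberg adjusted p of limma's moderated test is below 0.05. At an unadjusted p below 0.05 there were 886 genes (10.7%), where 414 would be expected with no difference. BXH7 stood at the B6 level for 18 of the 107 called genes (16.8%) and at the C3 level for 36 (33.6%). Over all genes tested these shares were 3.59% and 4.6%. Another 32 called genes (29.9%) were near both progenitors, against 89.9% of all genes, and 1 lay between them. The remaining 20 (18.7%) lay outside both, against 1.79% of all genes. The same BXH7 arrays enter the call and the class, so the shares are a description.

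**Figure D1:**
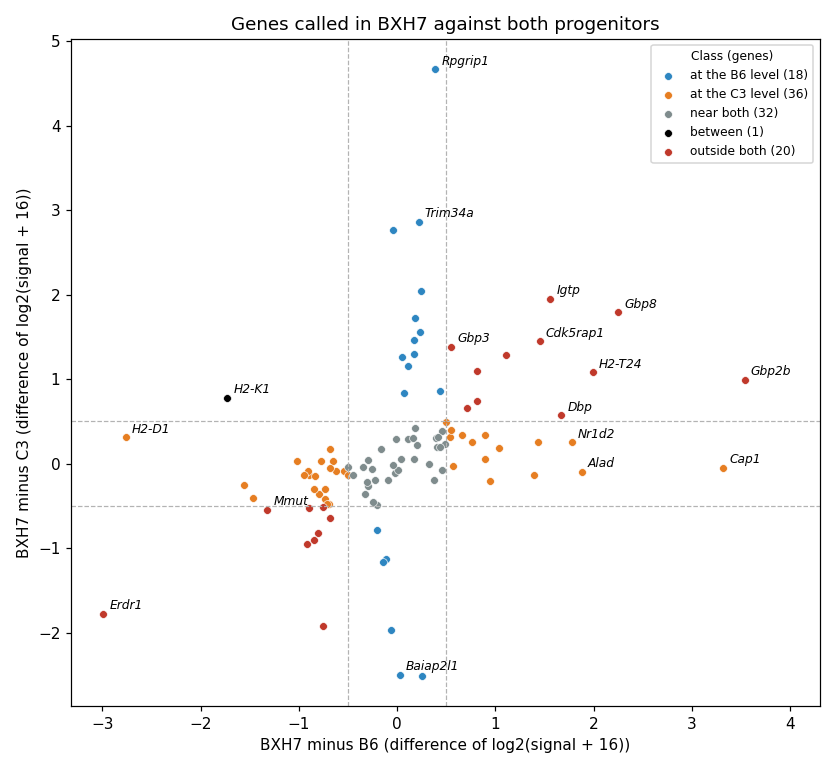
BXH7 minus B6 (horizontal axis) and BXH7 minus C3 (vertical axis), as differences of mean log2(signal + 16), for the 107 called genes, with 1 point per gene coloured by class and dashed lines at the margin of 0.5. The 18 genes at the B6 level lie along the vertical band and the 36 at the C3 level along the horizontal band. Gbp2b, Gbp8, Igtp and Erdr1 lie past the margin from both progenitors, with Gbp2b 3.54 above B6 but 0.99 above C3.

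The 2 BXH7 arrays resembled each other more than the arrays of any other strain did. They correlated at 0.975 over the tested genes, against 0.949 to 0.971 in the other strains, and the SD of their differences was 0.287 on the log2 scale against 0.298 to 0.399. The ratio of 3′ to 5′ Gapdh control signals was 0.919 and 1.03, inside the 0.797 to 1.13 of the other 22 arrays. The lung markers Sftpc, a surfactant protein of alveolar type 2 cells, and Scgb1a1, the club cell secretoglobin, had BXH7 signals of 13179 to 18720 and 13390 to 17647. The 2 C3 arrays, which set the C3 level, correlated at 0.95. C3 replicate 1 was closer to BXH6 replicate 1 (0.961), and C3 replicate 2 to B6 replicate 2 (0.953).

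Gbp2b had the largest increase of the called genes. Its BXH7 signals were 1711 and 1204, and the 16 other RI arrays ran from 59.5 to 775 with a median of 96.65. B6 had 132 and 89.9, C3 had 749 and 684, and F1 had 401 and 350. Both BXH7 arrays were thus above every other array, and only BXH10, with 775 and 711, came near the C3 level among the other RI strains. The increase was 3.32 ± 0.24 (SE) on the log2 scale with a limma adjusted p of 1.64e-07. BXH7 was 3.54 above B6 (adjusted p = 2.56e-06) and 0.99 above C3 (adjusted p = 0.239), so it passed the margin against C3 but not the test.

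Other interferon-inducible GTPases were also higher in BXH7, but their pattern over the other strains was not that of Gbp2b. In Gbp2b, BXH4 had 85.7 and 94.6, and C3 was 2.55 above B6 (limma adjusted p = 9.3e-05). Gbp8 had signals of 973 and 333 in BXH7 against 87.4 to 692 (median 146.5) in the other RI arrays. The B6 signals were 137 and 83.3, those of C3 151 and 158. Its increase was 1.66 ± 0.32 (adjusted p = 0.0107), and the lower BXH7 array lay inside the range of BXH4. Igtp had 4198 and 1845 in BXH7 against 575 to 2943 (median 1227), 1050 and 826 in B6, and 782 and 638 in C3. It was higher by 1.23 ± 0.26 (adjusted p = 0.0178). Ifi47, an immunity-related GTPase, had 2176 and 1259 against 419 to 1489, and was higher by 1.08 ± 0.19 (adjusted p = 0.00579). Gbp7 had 2333 and 1578 against 738 to 2133, with an increase of 0.85 (adjusted p = 0.0278). Gbp3 had 806 and 606 against 201 to 869.9, with an increase of 0.82 at the edge of the threshold (adjusted p = 0.0478). In these 5 genes BXH4 was within 0.5 of BXH7 on the log2 scale, and in Gbp3 and Gbp7 so was BXH9. Gbp probe sets can share targets between the near-identical family members, so the split of signal between them is uncertain.

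H2-T24, a nonclassical MHC class I gene, and Bst2, the interferon-inducible tetherin that holds budding virus on cells, were also higher. H2-T24 had 609 and 361 in BXH7, above all other arrays, against 88.3 to 347 in the other RI strains, 87.0 and 129 in B6, and 302 and 150 in C3. Its increase was 1.33 ± 0.23 (adjusted p = 0.00403). Bst2 had 658 and 555 against 149.6 to 704, and was higher by 0.84 ± 0.20 (adjusted p = 0.0422). All 8 genes lay above both progenitors by the margin, but they were grouped after their values were seen, so this is a description. Ifi209, also interferon-inducible and called higher, was at the B6 level. Only Igtp and Gbp7 of the 8 passed the limma test against both. Igtp was 1.56 above B6 (adjusted p = 0.0344) and 1.95 above C3 (adjusted p = 0.00465), and Gbp7 was 1.11 and 1.29 above them (adjusted p = 0.0417 and 0.0115). BXH7 minus B6 had 64 called genes (0.773%) and BXH7 minus C3 had 77 (0.93%).

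**Figure D2:**
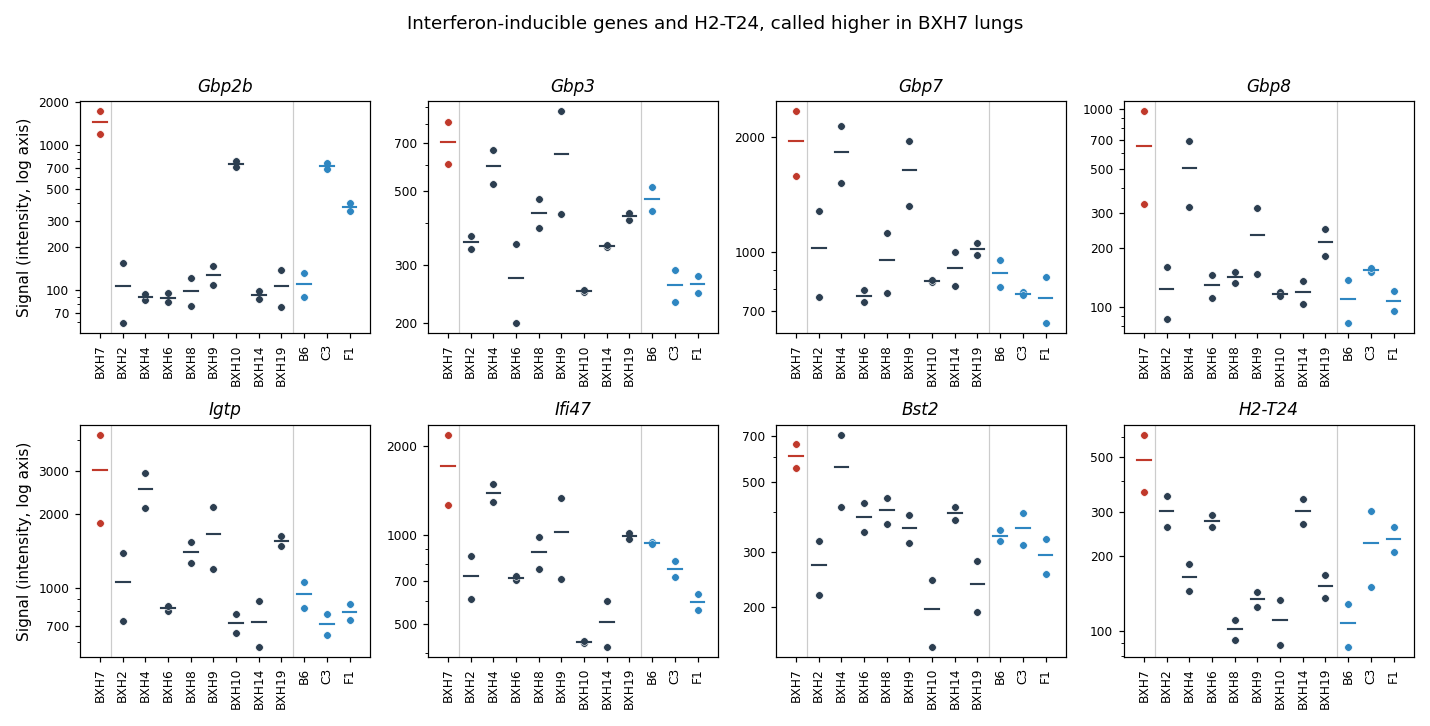
Signal on a log axis for the 2 arrays of each strain (points) and their mean (bars), in BXH7 (red), the other 8 RI strains (dark) and B6, C3 and F1 (blue), for 7 interferon-inducible genes and H2-T24. BXH7 has the highest mean in all 8 panels, with BXH4 next to it in Gbp7, Gbp8, Igtp, Ifi47 and Bst2, and BXH10 and C3 raised in Gbp2b.

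The increase in the 8 genes was not equal on the 2 BXH7 arrays. BXH7 replicate 1 was the higher in every one of them. Without it, the increases in the 8 genes were 0.57 to 3.07, and only Gbp2b was still called (adjusted p up to 0.636). Without BXH7 replicate 2 the increases were 0.96 to 3.57, and Gbp2b, Gbp8, H2-T24, Igtp and Ifi47 were still called (adjusted p up to 0.236). Bst2 also lost its call without replicate 1 of BXH6, BXH9, BXH14 or BXH19, replicate 2 of BXH8 or either B6 array (adjusted p up to 0.0644 over these fits). Gbp3 kept its call only without BXH4 replicate 2 or an array of BXH6 or BXH9 (adjusted p up to 0.0721 without any other array of another strain). The 8 genes were grouped after their values were seen.

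Over the list of interferon-induced GTPases, 5 of 10 tested members were called higher and 0 lower, and all 10 differences were above 0, although Gbp2 was at -0.08 without BXH7 replicate 1. Their median was 0.83, against 0.01 over all genes. Of the 8280 genes tested 0.628% were called higher, and 4328 were above 0. Irgm2 (0.91, adjusted p = 0.0896), Iigp1 (0.77, adjusted p = 0.0560) and Gbp6 (0.77, adjusted p = 0.170) did not pass, and Irgm1 and Gbp2 differed by 0.23 and 0.17. Irgm2, not called here, did pass the limma test against both progenitors. It was 1.6 above B6 (adjusted p = 0.0272) and 1.43 above C3 (adjusted p = 0.05 as rounded). The mean of the list was 10.45 and 9.84 on the BXH7 arrays and 8.5 to 9.97 on the other RI arrays, and the highest of those was an array of BXH4. It was 8.81 to 9.08 in B6 and C3. In the wider interferon response list Bst2 was the 1 of 15 called, the median was 0.15, and Rsad2, the antiviral viperin, differed by -0.77 (adjusted p = 0.113). All 9 tested MHC class II genes were above 0 with a median of 0.22, and H2-DMa, which loads peptides onto class II molecules, was called (0.49, adjusted p = 0.0205) with signals of 972 and 704 against 356 to 879.9. H2-DMa lost its call without BXH7 replicate 1 (0.27, adjusted p = 0.671). The class II transactivator Ciita differed by 0.84 (adjusted p = 0.0947), and the peptide transporter gene Tap2 and the immunoproteasome gene Psmb8 by 0.51 and 0.48 (adjusted p = 0.0902 and 0.0575). Markers of natural killer cells, which make interferon-gamma, averaged 8.97 and 8.70 on the BXH7 arrays, 10.16 and 10.06 in BXH4, and 7.69 to 10.16 over the other RI arrays. Of 6 tested natural killer markers 0 were called, the median difference was 0.07, and their part in the result was not tested. In whole lung RNA, fewer cells of a type and less RNA per cell cannot be told apart.

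Outside both progenitors, 2 further called genes passed the test against each progenitor. Cdk5rap1, a mitochondrial tRNA-modifying enzyme, had signals of 648 and 559 in BXH7, while B6 (212 and 208), C3 (197 and 223) and F1 (190.3 and 197) were low. BXH10 (558 and 540.3) and BXH19 (507 and 509.9) were within 0.5 of BXH7, and the other 6 RI strains ran from 179.6 to 288. The increase over the RI strains was 1.05 ± 0.13 (adjusted p = 0.000174), and BXH7 was 1.45 above both B6 and C3 (adjusted p = 7.12e-05 and 7.03e-05). Erdr1, the erythroid differentiation regulator, ran the other way. It had 349.8 and 319 in BXH7 and 299 to 2320 in the other RI arrays. B6 was far higher at 3832 and 1991, and C3 had 1124 and 1259. BXH7 was lower than the other RI strains by 1.46 ± 0.20 (d = -1.46, adjusted p = 0.000460), with BXH4 (455 and 299) and BXH9 (359 and 310.3) within 0.5 of BXH7. Both genes stayed called without either BXH7 array. Only 7 of the 8280 genes (0.0845%) passed against both progenitors in the same direction, and 4 of them were among the 107.

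The other genes outside both were shifted by the margin alone. Cx3cr1, the fractalkine receptor of monocytes, had 327 and 343 in BXH7 against 88.5 to 226 in the other RI arrays and 119 to 261 in B6, C3 and F1, with an increase of 0.95 (adjusted p = 0.0295). The monocyte and dendritic cell list as a whole had 1 of 13 called and a median of 0.12. Chil3, a chitinase-like protein of alveolar macrophages and neutrophils, had 2084 and 1944 against a median of 4468 in the other RI arrays, while B6 had 3340 and 4250.4 and C3 had 2464 and 3459.7 (d = -0.86, adjusted p = 0.00499). BXH10 was lower still, at 883 and 566. Mmut, the mitochondrial methylmalonyl-CoA mutase, Papss2, which makes the sulfate donor, and Slc25a47, a mitochondrial carrier, were lower by 0.91, 0.92 and 0.79. Tent5c, a poly(A) polymerase, Rgs5, a pericyte regulator of G proteins, and Fcna, a ficolin, were lower by 0.78, 0.77 and 0.74. In Mmut, Papss2 and Rgs5, no further probe set above the signal filter placed BXH7 outside both. That of Mmut was -0.61 from B6 and -0.03 from C3, and that of Rgs5 -0.35 and 0.04. Those of Papss2 were -0.07 and -1.5 from B6, and both -0.29 from C3. Dbp lay outside both in another sense, below the other RI strains and above both progenitors, and is described with the clock. Without BXH7 replicate 1, Cx3cr1, Chil3, Papss2, Slc25a47, Tent5c, Rgs5 and Fcna lost their calls (adjusted p from 0.0906 to 0.527). Without BXH7 replicate 2 these 7 and Mmut lost theirs (adjusted p from 0.0649 to 0.549).

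Of the 107 called genes, 90 had at least 1 other RI strain within 0.5 of BXH7, and 17 had none. Among the 20 outside both, 14 were shared in this way and 6 were not: Gbp2b, H2-T24, Cx3cr1, Chil3, Dbp and Slc25a47. In Slc25a47 the F1 mean was within 0.5 of BXH7. The same BXH7 arrays gave the calls, so the counts that follow are a description. Both BXH7 arrays lay above all 22 others for 13 called genes, where 0.519% of all genes did so, and below all 22 for 5, where 0.133% did so. Besides Gbp2b, H2-T24, Cdk5rap1 and Cx3cr1, the former included Sox4, a developmental transcription factor (3177 and 3194 against at most 2913), Sdc4, the heparan sulfate proteoglycan syndecan-4 (789.8 and 1030.0 against at most 737) and the stress-inducible Ier3 (3448 and 3386 against at most 3180). The 5 at the bottom included the metallothionein Mt1 (899 and 913 against at least 1041) and Ccn2, a matrix-associated growth factor target of TGF-beta (2228 and 2433 against at least 2550). Sox4, Sdc4, Ier3, Mt1 and Ccn2 lost their calls without either BXH7 array (adjusted p from 0.0555 to 0.501).

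At the B6 level, Rpgrip1 and Trim34a had the largest increases and Baiap2l1 the largest decrease. Rpgrip1, a ciliary protein of photoreceptors, had 1392 and 2653 in BXH7, 1547 and 1392 in B6, and 42.2 and 83.5 in C3. The other RI arrays formed separate levels, 1516 to 2542 in BXH6, BXH9 and BXH10 and 72.8 to 176 in the other 5 strains. BXH7 was higher than the RI mean by 2.48 ± 0.24 (adjusted p = 9.39e-06). Trim34a, of an antiviral ubiquitin ligase family, had 1091 and 992 in BXH7, 996 and 793 in B6, 126 and 134 in C3, and 26.6 to 1141 in the other RI arrays. It was higher by 2.29 ± 0.33 (adjusted p = 0.000845), with BXH2, BXH14 and BXH19 at the same level. Another Trim34a probe set, below the signal filter with a mean of 57.8, differed by -0.65. On that probe set BXH7 was 0.12 from B6 and -0.91 from C3. Pttg1, the securin that holds sister chromatids, had 4733 and 6204 in BXH7, 4957 and 4641 in B6, and 1062 and 2514 in C3, and was higher by 1.26. Baiap2l1, a membrane-bending adaptor of the actin cytoskeleton, had 575 and 729.8 in BXH7, 560.3 and 713 in B6, and 4183 and 3330.4 in C3. It was lower than the RI mean by 1.91 ± 0.12 (d = -1.91, adjusted p = 2.92e-08), and only BXH2 (615 and 746) and BXH8 (626 and 607) shared the low level.

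Smaller differences at the B6 level involved genes of several roles. Arap3 was higher by 0.92. Ifi209, an interferon-inducible gene of the p200 family, was higher by 0.88, with 617 and 521 in BXH7, 522 and 438 in B6, and 114 and 139 in C3. Wdr82, a subunit of histone H3 methyltransferase complexes, was higher by 0.84 ± 0.10 (adjusted p = 0.000162), and Sc5d, a sterol desaturase, by 0.81. Vps37c, of the endosomal sorting machinery, and Prpf19, a splicing factor, were higher by 0.88 and 0.80, and lie near each other in the genome with 6 annotated genes between them. Both were at the B6 level in BXH6 and BXH10 too. Nme7, a nucleoside diphosphate kinase family member of the centrosome, was lower by 0.96 (d = -0.96, adjusted p = 0.000521) with 256 and 239 in BXH7, 248 and 269.6 in B6, and 1068 and 959.5 in C3. The receptor gene Gprc5b, the branched-chain aminotransferase gene Bcat2 and the Golgi protein gene Tmem87a were lower by 1.15, 0.88 and 0.92. In 16 of the 18 genes the difference between C3 and B6 was itself called, as it was for 138 genes over the array (1.67%). With BXH7 replicate 1 left out, the calls of Rpgrip1, Pttg1, Pdxdc1, Wdr82, Nme7, Gprc5b and Baiap2l1 stood and the other 11 were lost (adjusted p up to 0.408). Without replicate 2 those of Pttg1, Arap3, Ifi209, Vps37c, Rab6b, Sdc4, Bcat2, Tmem87a and Ccdc85a were lost (adjusted p up to 0.501).

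At the C3 level stood genes of the major histocompatibility complex and Glo1. H2-D1, a classical class I gene, had 1443 and 1148 in BXH7, 1086 and 985 in C3, and 8824 and 8797 in B6. The other RI arrays ran from 882 to 13593, and BXH2, BXH6 and BXH14 were at the low level. BXH7 was lower than the RI mean by 1.70 ± 0.16 (d = -1.70, adjusted p = 7.18e-06). H2-K1 had 3009 and 2287 in BXH7, 1565 and 1486 in C3, and 8594 and 8905 in B6, and was the called gene that lay between the progenitors (d = -0.99, adjusted p = 0.000228). Class I genes are near-identical and vary between strains, so signal can be split between them and these levels are uncertain. Other H2-D1 probe sets above the filter differed from the RI mean by -4.19, -2.35, -0.52 and 3.74, and from C3 by -0.05, -0.35, 0.71 and 0.39. Their sign against the RI strains was thus mixed, while in 3 of the 4 BXH7 was within 0.5 of C3. With the mean of its probe sets H2-D1 differed by -0.33 and was not called (adjusted p = 0.180). Other H2-K1 probe sets above the filter were -3.92, -1.3 and -0.47 from B6. From C3 they were -0.06, 0.23 and 0.56 in that order, and none placed BXH7 between the progenitors. Glo1, which detoxifies methylglyoxal, had 2351 and 2439 in BXH7, 2741 and 2789 in C3, and 1079 and 1413 in B6, and was higher by 0.76 ± 0.11 (adjusted p = 0.000628).

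Cap1, which recycles actin monomers, was also at the C3 level, with 3129 and 3502 in BXH7, 3402 and 3441 in C3, and 352 and 286 in B6. It was higher than the RI mean by 0.92 (adjusted p = 0.00104), while 6 of the other 8 strains stood at the same level and only BXH8 and BXH10 at that of B6. Alad, the second enzyme of haem synthesis, had 1328 and 1454 in BXH7, 1370.3 and 1629.9 in C3, and 337 and 399 in B6, with an increase of 0.65 (adjusted p = 0.00629). The splicing factor gene Srrm2, the calcineurin regulator gene Rcan2 and the alkaline phosphatase gene Alpl were higher by 0.60, 0.52 and 0.70. Spon2, a matrix protein of innate immunity, had 405 and 299.8 in BXH7, 407 and 538 in C3, and 79.4 to 313 in the other RI arrays, with an increase of 1.09 (adjusted p = 0.0295). Among lower genes, Copz2, a subunit of the COPI vesicle coat, had 169 and 213 in BXH7, 235 and 222 in C3, and 699.8 and 499 in B6 (d = -0.75). Lpin1, a phosphatidate phosphatase, had 243 and 348 in BXH7, 373 and 284 in C3, and 533 and 531 in B6 (d = -1.30, adjusted p = 0.00558). In 15 of the 36 genes at the C3 level the C3 minus B6 difference was called. With BXH7 replicate 1 left out, only Cap1, Glo1 and H2-D1 of the 36 were still called. Without replicate 2 the calls of Glo1, H2-DMa, Hpgd, Tef, Fhdc1, Lpin1, Per1 and H2-D1 stood (highest adjusted p of the others, 0.689).

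**Figure D3:**
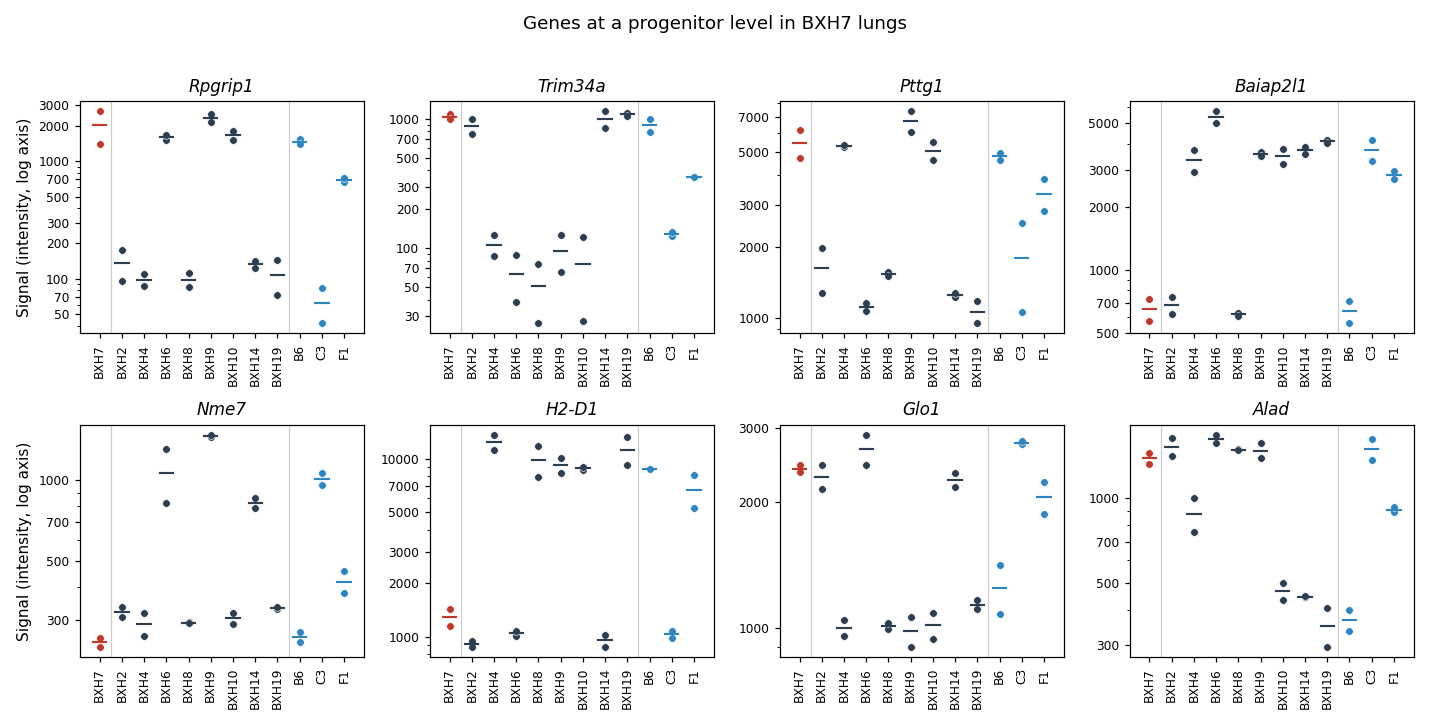
Signal on a log axis for the 2 arrays of each strain (points) and their mean (bars) in 8 genes at a progenitor level in BXH7 (red), with the other 8 RI strains (dark) and B6, C3 and F1 (blue). BXH7 sits beside B6 in Rpgrip1, Trim34a, Pttg1, Baiap2l1 and Nme7, and beside C3 in H2-D1, Glo1 and Alad, and most RI strains fall near one progenitor or the other.

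Circadian clock genes were among the lower genes. With no hour of harvest in the labels, strain and hour cannot be told apart in these genes. Of 14 tested clock genes 7 were lower and 1, Arntl, was higher, and the median was -0.63. Among all genes tested 0.664% were lower and 0.628% higher, and the median was 0.01. Per1 had 342 and 491 in BXH7 against 487 to 1927 (median 1200.45) in the other RI arrays, with 911 and 711 in B6 and 737 and 274 in C3. It was lower by 1.44 ± 0.25 (d = -1.44, adjusted p = 0.00534), and BXH6, with 591 and 487, was near it. Per2 had 217 and 133 against 195 to 1031 (median 583), 182 and 170 in B6, and 168 and 179 in C3 (d = -1.61, adjusted p = 0.00768). Its lower BXH7 array was below the progenitors and its higher one above them. Per3 had 374 and 329 against 407 to 1633 (median 678), 314 and 223 in B6, and 383 and 419.8 in C3 (d = -1.02, adjusted p = 0.00168).

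The clock output factors, which bind the D-box, moved the same way. Dbp had 505 and 638 in BXH7, below all 16 other RI arrays (807 to 2327, median 1485) and above B6 (196 and 142), C3 (403 and 353) and F1 (158 and 189). The difference from the RI strains was -1.33 ± 0.17 (adjusted p = 0.000188), and BXH7 was 1.67 above B6 (adjusted p = 0.000334) and 0.57 above C3 (adjusted p = 0.426). Tef had 2483 and 2716 against 2974 to 6019, and 2230.3 and 2138 in C3 (d = -0.71, adjusted p = 0.00266). Hlf had 329 and 331 against 426 to 975, 335 and 255 in B6, and 294 and 339.9 in C3 (d = -0.89, adjusted p = 0.000860). The repressor Nr1d2 had 1923 and 2007 against 2278 to 3791, 1819.9 and 1492 in C3, and 520 and 605 in B6 (d = -0.60, adjusted p = 0.0202). Arntl, the activator, had 306 and 298 against 64.7 to 204 (median 125), 568 and 592 in B6, and 300 and 366 in C3, and was higher by 1.28 ± 0.23 (adjusted p = 0.00558). No BXH7 array overlapped the other RI arrays in Per3, Dbp, Tef, Hlf, Nr1d2 or Arntl. Over all genes, both BXH7 arrays were above the 16 other RI arrays in 1.04% and below them in 0.7%. Of the 107 called genes, 22 were above them and 24 below. The same arrays gave the calls, so the lack of overlap is a description.

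**Figure D4:**
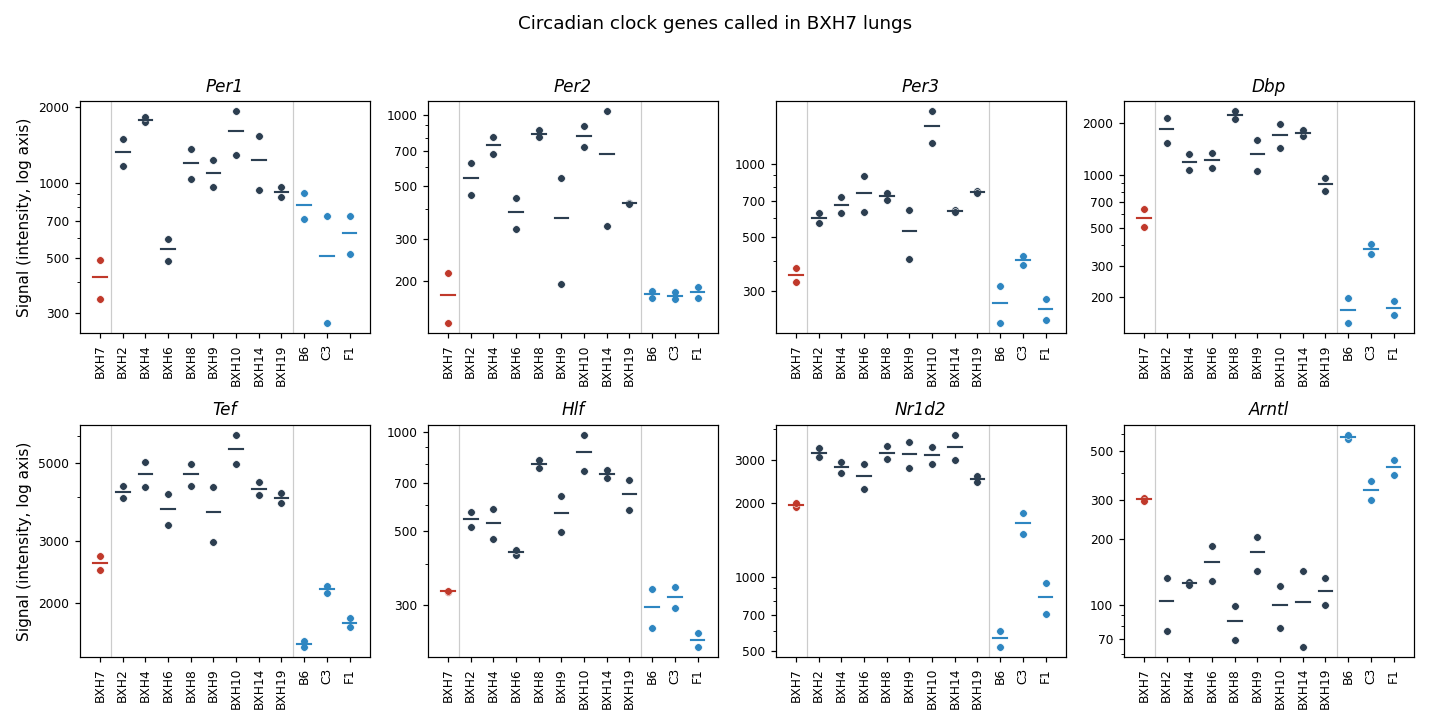
Signal on a log axis for the 2 arrays of each strain (points) and their mean (bars) in 8 called clock genes, for BXH7 (red), the other 8 RI strains (dark) and B6, C3 and F1 (blue). BXH7 has the lowest RI mean in Per1, Per2, Per3, Dbp, Tef, Hlf and Nr1d2 and the highest in Arntl, and its mean lies between the other RI strains and the progenitors in Dbp, Tef, Nr1d2 and Arntl.

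The mean over the clock list was 9.10 and 9.14 on the BXH7 arrays, below the 9.37 to 10.06 of the other RI arrays. B6 stood at 8.77 and 8.71, C3 at 9.10 and 9.00, and F1 at 8.76 and 8.92. The median difference of the list from B6 and from C3 was 0.13 and 0.02. Among members that did not pass, Cry2 differed by -0.67 (adjusted p = 0.273), Rora by -0.46 (adjusted p = 0.251), Usp2 by -0.47 (adjusted p = 0.120) and Bhlhe40 by -0.40 (adjusted p = 0.203). Clock differed by 0.36 (adjusted p = 0.251) and Nr1d1 by -0.12 (adjusted p = 0.935). Without BXH7 replicate 1 the 8 called genes kept their sign with sizes of 0.57 to 1.93, and Per3 and Dbp were still called (adjusted p up to 0.317). Without replicate 2 the sizes were 0.63 to 1.69, and Tef, Hlf, Dbp and Per1 were still called (adjusted p up to 0.333).

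The promoters of Per1, Per3 and Tef are shown because these 3 carry the motifs of the clock among the called members. Windows were held for 7 of the 8 genes. The E-box (CACGTG), bound by ARNTL with CLOCK, was found in Per1 and Tef, and in 6.02% of all windows. The D-box (TTANGTAA) was found in Per3, and in 2.06% of all windows. The NR1D and ROR element (RORE, searched as A, any 2 bases, T, any base, GGTCA) was in 0 of 10 windows and in 2.04% of all windows, which says only that these letters are not in the 250 bases. Both strands were searched, no match overlaps another, and capitals mark the matches. The RefSeq windows in GRCm38.p6 are at chr11:69098699-69098948 on the plus strand for Per1, chr4:151044666-151044915 on the minus strand for Per3 and chr15:81811164-81811413 on the plus strand for Tef, for each gene the upstream 250 bases.
Per1: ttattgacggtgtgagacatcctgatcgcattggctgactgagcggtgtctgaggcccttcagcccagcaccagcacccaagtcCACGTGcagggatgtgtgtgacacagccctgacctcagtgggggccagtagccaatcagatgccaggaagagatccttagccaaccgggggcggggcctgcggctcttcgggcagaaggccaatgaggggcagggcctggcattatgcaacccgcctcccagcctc
Per3: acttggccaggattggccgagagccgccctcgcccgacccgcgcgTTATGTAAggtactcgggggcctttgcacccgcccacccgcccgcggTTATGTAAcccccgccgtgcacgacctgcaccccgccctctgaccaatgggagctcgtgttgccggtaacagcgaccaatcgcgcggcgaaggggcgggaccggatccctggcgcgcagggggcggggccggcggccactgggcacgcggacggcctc
Tef: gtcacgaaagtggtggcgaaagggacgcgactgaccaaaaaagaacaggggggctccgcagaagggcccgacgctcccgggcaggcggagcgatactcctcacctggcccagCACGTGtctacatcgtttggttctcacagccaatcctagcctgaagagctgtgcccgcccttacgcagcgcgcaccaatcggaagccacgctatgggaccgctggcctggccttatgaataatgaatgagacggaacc

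Some glucocorticoid-responsive genes were also lower. The labels give no hour of harvest, so strain and hour cannot be told apart here either. Of 15 tested genes 4 were called lower and 0 higher, with a median of -0.57, and 1 was above 0. Among all 8280 genes 0.664% were called lower, the median was 0.01 and 4328 were above 0. Tsc22d3, the glucocorticoid-induced leucine zipper, had 1761 and 1179.9 in BXH7, 2342 and 1356 in C3, 2502 and 2731 in B6, and 1501 to 5259 in the other RI arrays (d = -1.24, adjusted p = 0.0191). Mt1 was lower by 0.57, and Errfi1, a feedback inhibitor of the EGF receptor, by 0.80, with 4 annotated genes between Errfi1 and Per3. Per1 belongs to this list as well. Zbtb16 had 139.8 and 156 against 116 to 3145 but did not pass (d = -2.02, adjusted p = 0.0862), nor did the glucocorticoid receptor co-chaperone gene Fkbp5 (d = -1.13, adjusted p = 0.0536). The list mean was 9.79 and 9.78 on the BXH7 arrays, 9.91 to 10.91 on the other RI arrays. B6 stood at 10.31 and 10.12, and C3 at 10.17 and 9.91. Without BXH7 replicate 1 none of Tsc22d3, Per1, Mt1 and Errfi1 was called by limma (adjusted p up to 0.486), and without replicate 2 only Per1 was (adjusted p up to 0.479). Outside this list, Klf15, a fasting- and glucocorticoid-responsive transcription factor, was lower by 0.98, and Glul, glutamine synthetase, by 0.78, and both lost their calls without either BXH7 array (adjusted p from 0.175 to 0.486).

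In all 17 lower genes near both progenitors the mean of the other RI strains lay above both progenitors, and in 14 of the 15 higher genes it lay below both. The choice of the class largely fixes this, since BXH7 is near both progenitors and called against that mean. Besides Per2, Per3 and Hlf, the class held Eln, Il1r1, Gyg and Tspan4. Eln, the elastin of alveolar walls, had 5956 and 7068 in BXH7, 5607 and 7079 in C3, 7779 and 8251 in B6, and 1683 to 5444 in the other RI arrays, with an increase of 1.08 (adjusted p = 0.0116). Il1r1, the interleukin 1 receptor, had 357 and 536 against 70.1 to 451, and was higher by 1.05 (adjusted p = 0.00377). Gyg, the glycogenin that primes glycogen, had 1953 and 1581 against 720.1 to 1369, and was higher by 0.82 (adjusted p = 0.00534). Tspan4, a tetraspanin, had 390.0 and 547 against 569 to 1672, 300.2 and 366 in B6, and 704 and 334 in C3 (d = -1.16, adjusted p = 0.00534). Without BXH7 replicate 1 Il1r1 and Per3 were the 2 of 32 still called. Without replicate 2 Gyg, S100g, Gsta3, Hlf and Tspan4 were (adjusted p up to 0.736 among the rest).

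Markers of skeletal muscle varied between arrays, and BXH7 was near the low end of their range. Skeletal muscle markers averaged 7.08 and 7.29 on the BXH7 arrays and 6.81 to 11.37 (median 9.41) on the other RI arrays. They averaged 10.34 and 10.31 in B6 but 7.09 and 10.18 on the 2 C3 arrays. Of 16 tested muscle genes 0 were called and 0 were above 0 (median -1.66). Squamous epithelium markers had a median of -1.24 with 0 of 8 called, adipose markers -0.58 with 0 of 6, and erythroid markers -0.87 with 0 of 2. Cardiac muscle markers, with a median of -0.07 and 0 of 16 called, averaged 9.63 and 9.98 in BXH7 and 9.28 to 11.33 (median 9.84) in the other RI arrays. T cell markers of thymus and lymph node averaged 8.73 and 8.56 in BXH7 against 8.3 to 9.16 (median 8.58). With the muscle mean as a covariate 23 genes were higher and 23 lower, and 45 of the 107 were still called. These included 5 of the 8 clock genes (Per1, Per3, Dbp, Tef and Hlf), Per1 of the 4 glucocorticoid-responsive genes, and Gbp2b, H2-T24 and Ifi47 of the 8 interferon-related genes. Of the lung's own cells, alveolar type 1 markers were above 0 in 10 of 10 with a median of 0.22 and 0 called. Type 2 markers had a median of 0.10 with 0 of 14 called. Among all genes tested 4328 of 8280 were above 0. Neutrophil markers had a median of -0.36, with Chil3 the 1 of 10 called.

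Genes whose C3 minus B6 difference was called and at least 1 on the log2 scale gave 75 positions between the progenitors. The fit and the signal filter behind this choice used all arrays. BXH7 was nearer C3 at 34 of them (45.3%), inside the 29.3% to 61.3% of the other RI strains. With B6 at 0 and C3 at 1, it lay below -0.5 in 1 gene, beyond B6, and above 1.5 in 2 genes, beyond C3. The latter were Erdr1 (2.48) and Dbp (1.52).

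Called genes that lay near each other, with at most 10 annotated genes between them, formed 5 pairs. Gbp7 and Gbp3 are adjacent, and 1 gene separates Gbp3 from Gbp2b. Over the RI strain means, Gbp7 and Gbp3 correlated at 0.94, and Gbp3 and Gbp2b at 0.17. Vps37c and Prpf19 were both higher, Errfi1 and Per3 both lower, and Rap1gap (-0.55) and Alpl (0.70), with 2 genes between them, went opposite ways. Rap1gap and Alpl were not called without either BXH7 array (adjusted p from 0.0906 to 0.502).

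The called genes kept their direction on each BXH7 array, and most did not keep their call with 1 array. With BXH7 replicate 1 left out, 10 genes were higher and 11 lower, and 19 of the 107 were still called. Without replicate 2, 19 were higher and 16 lower, and 31 of the 107 were still called. All 107 had the same sign in both fits. In each such fit the remaining BXH7 array is assumed to vary like the arrays of the other strains. The calls of 13 genes stood in every fit that left out 1 array: Gbp2b, Rpgrip1, Pdxdc1, Cdk5rap1, Wdr82, Glo1, Baiap2l1, H2-D1, Erdr1, Dbp, Gprc5b, H2-K1 and Nme7.

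**Figure D5:**
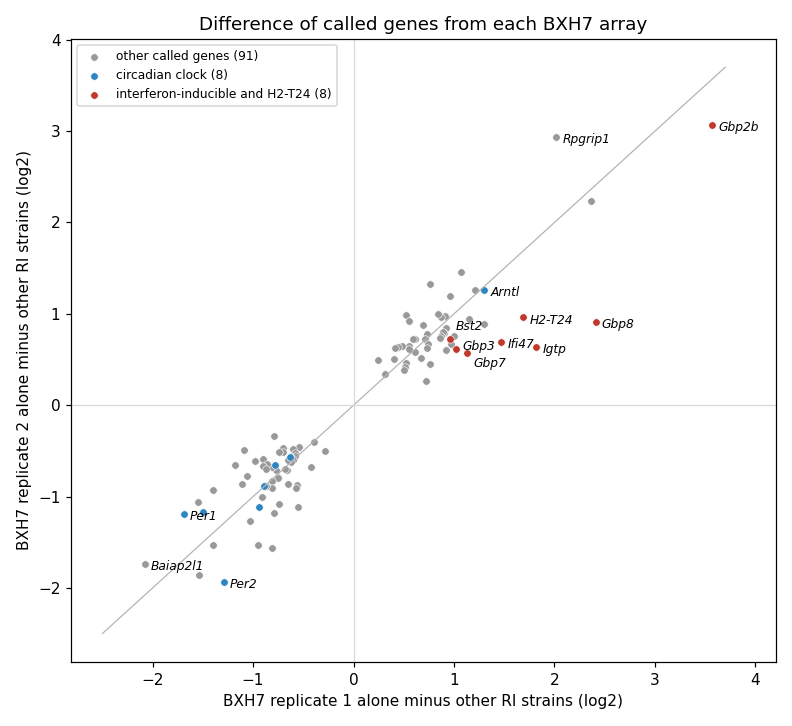
Difference from the other RI strains on the log2 scale estimated from BXH7 replicate 1 alone (horizontal axis) and replicate 2 alone (vertical axis) for the 107 called genes, with the line of equality. All points lie in the lower left or upper right quadrant, and the interferon-inducible genes and H2-T24 (red) lie to the right of the line, with the larger difference on replicate 1.

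Further probe sets measured 55 of the called genes again, and in 43 of these genes all of them had the sign of the tested one. Of 64 further probe sets above the signal filter, 57 had the same sign and 44 of those also an unadjusted p below 0.05. In Pdxdc1, a vitamin B6-dependent decarboxylase homologue, the tested probe set was higher (1.23) and another was lower (-1.54). The former was -0.04 from B6 and the latter 0.35, while they were 2.77 and -3.28 from C3. Both thus placed BXH7 at the B6 level with opposite signs. With the mean of a gene's probe sets in place of the tested one, Pdxdc1 differed by 0.15 (adjusted p = 0.725). Arap3, Sc5d, Prpf19 and Sdc4, also at the B6 level, lost their calls in that fit (adjusted p from 0.129 to 0.238). So did Rcan2, Eln, Sox4, Mt1, Rgs5 and Mmut (adjusted p from 0.0567 to 0.821).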

How the data were processed

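Lung RNA was hybridised to Affymetrix Mouse 430A arrays, and the deposited table holds 1 signal intensity per probe set and array. Which software made these values is not given in the sources used here, and neither is its version. The trimmed mean of every array was between 500.11 and 500.13, so the authors' values had been scaled to a common level, and array medians ran from 239 to 269.6. No further normalization was applied. Of 22690 probe sets, 20380 had 1 gene symbol, 691 several, 1555 none and 64 were controls. Levels are log2(signal + 16). The probe set with the highest mean stood for each gene, and genes in the top 60% of probe sets (signal of at least 169) gave 8280 genes.

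All 12 strain groups entered 1 limma fit (limma 3.58.1, R 4.3.3, lmFit and eBayes with trend, 12 residual degrees of freedom). The contrast was BXH7 minus the mean of the other 8 RI strain means, with Benjamini-Hochberg adjustment over all genes and a threshold of 0.05. B6 and C3 levels used the same fit and a margin of 0.5. Named genes are the 15 highest and 15 lowest called differences, the called genes outside both progenitors or beyond all 22 other arrays (up to 12 and 10 of each sign), up to 4 members of smallest p per list (44 lists), near neighbours, and 10 genes with known strain levels, except 1 called gene outside both progenitors that is not reported here. Sc5d, Copz2, Glul, Gyg, Arap3, Nr1d2, Wdr82, Hpgd, Rcan2, Srrm2, S100g, Ccdc85a, Tmem87a, Fhdc1, Rab6b, Bcat2 and other list members past that number were chosen after their values were seen. Members and lists were chosen with earlier results of these data known. The fit was tested on simulated data. Alternatives covered normalization, offset, filter, probe set rule, replicate block, muscle covariate, margin and left-out arrays. Same-numbered arrays did not deviate together (66 pairs, correlations -0.30 to 0.34, 22 above 0.1), so replicate numbers do not pair samples.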

Additional observations from a re-analysis of the deposited data

How the results depend on the processing

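The called genes kept their direction in every fit that held them except Ociad1, which was -0.13 with the mean of a gene's probe sets. Nnt, which was not called, was 0.02 there and 0.03 with the muscle covariate. Without BXH7 replicate 1 and 2 in turn, Gbp2 was -0.08 and 0.42 and Nr1d1 was 0.15 and -0.39, and neither was called. Leaving out 1 array gave 10 to 69 higher genes, 11 to 77 lower, 6 to 25 at the B6 level, 4 to 46 at the C3 level, 1 to 47 near both and 9 to 27 outside both. The lowest counts came without BXH7 replicate 1 and the highest without BXH14 replicate 2. The share of positions nearer C3 was 38.2% to 46.6%. With the muscle covariate 23 genes were higher and 23 lower, with 10 at the B6 level, 15 at the C3 level, 8 near both and 12 outside both. The top 40% of probe sets gave 12 genes outside both, and testing every probe set gave 36 at the B6 level. A margin of 0.3 gave 13 near both and 37 outside, and a margin of 1 gave 14 at the C3 level, 69 near both and 6 outside. The cause of these changes was not tested. Quantile normalization called 117 genes, of which 105 were among the 107, and median centring 102, of which 92 were. The mean of probe sets held 97 of the 107 genes and called 78 of them. The top 40% called 81 of the 107, and no filter called 86. With the replicate block 117 genes were called and 105 were shared, and the calls of Bst2 and Gbp3 were lost (adjusted p = 0.0519 and 0.0589). Leaving out both arrays of BXH4, BXH2 or BXH6 ended 11, 6 and 2 of the 107 calls, the last chosen after seeing the data. The 2 arrays per strain limit the precision.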

Other observations

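Nnt, the mitochondrial transhydrogenase whose gene is disrupted in C57BL/6J, had 994.8 and 1002 in BXH7, 1005 and 941 in C3, and 531 and 464 in B6. BXH7 was 0.98 above B6 (limma adjusted p = 0.000688), and all 8 other RI strains were within 0.5 of it, at 812 to 1310 (-0.05 against their mean). Tlr4, the endotoxin receptor that carries a missense mutation in C3H/HeJ, had 209 and 228 in BXH7, 275 and 209 in B6, and 201 and 226 in C3, a difference of -0.07 from the RI mean.

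Further gene lists held few called genes, and all genes tested had a median of 0.01, with 4328 of 8280 above 0. Genes of the proteasome were above 0 in 19 of 23 with a median of 0.06. Targets of NRF2, the oxidative stress factor, were above 0 in 3 of 16 with a median of -0.13, and the glutathione transferase gene Gsta3 was the 1 called lower. Fibroblast markers had a median of 0.06, with Eln the 1 of 19 called, and alveolar macrophage markers had -0.02, with Chil3 the 1 of 12 called.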
